A study of Gossypium barbadense and Gossypium hirsutum with 4 samples.

Results

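Chromosomes A07 and D07 are homoeologues, the copies of ancestral chromosome 7 that cultivated tetraploid cotton inherited from an A-genome and a D-genome parent. All islands of CENH3 enrichment on these chromosomes were taken from the lists of 2 species, 11559 of 156610 islands in all. In Gossypium barbadense (Hai7124) A07 held 3265 islands and D07 held 1910, 5175 of the 67639 in its list. In Gossypium hirsutum (TM_1) A07 held 4691 and D07 held 1693, 6384 of 88971. Both chromosome names were present in both lists. For each species, nuclei of leaves taken 4 weeks after planting were digested with MNase and gave 1 library with CENH3 antibody and 1 with none, the input. The labels state no treatment and no number of plants per library. With 1 library of each kind per species, no difference between chromosomes or species has a p-value, and a difference between species cannot be told apart from a difference between libraries.

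CENH3 stands in for the usual histone H3 in part of the nucleosomes of an active centromere, and the kinetochore assembles on that chromatin. In plants its position is set largely epigenetically and not by a fixed sequence. Cotton centromeres are rich in retrotransposons, some of them shared between the A and D subgenomes. Homoeologues that descend from 1 ancestral chromosome usually keep their gene order, while the lengths of the sequence between genes may differ widely.

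Island values are given as a scaled ratio, ChIP reads over input reads (counted as at least 3) times a constant per list, 1.64 (G. barbadense) or 1.20 (G. hirsutum). A strong island is one with a scaled ratio of 4 or more. Over whole lists, 28.6% of the G. barbadense islands and 9.75% of the G. hirsutum islands were strong. For a region, the ChIP and the input reads of its islands were each added up, and their quotient times the constant is its ratio. The range in parentheses after a ratio is the Clopper-Pearson interval at 95%, an exact binomial interval that covers counting error only. Positions follow the assembly that each list was made on, whose build is not given in the sources used here. Chromosomes are set against each other by relative position, in percent of the mapped length (the end of the last island). The mapped length was 95.0 Mb for A07 and 57.2 Mb for D07 in G. barbadense, and 96.6 Mb and 58.4 Mb in G. hirsutum.

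On each of the 4 chromosomes the site with the highest profile of strong islands was taken as its CENH3 domain. The domain is the run of 100 kb bins around the maximum of the profile of strong islands, out to 25% of the way from the chromosome's median to that maximum. In G. barbadense the domain of A07 ran from 58.6 to 60.2 Mb, 1.6 Mb wide, and that of D07 from 40.3 to 41.7 Mb, 1.4 Mb wide. In G. hirsutum the domain of A07 ran from 59.6 to 60.7 Mb, 1.1 Mb wide, and that of D07 from 41.2 to 42 Mb, 0.8 Mb wide. The island of highest scaled ratio of each chromosome lay inside its domain. Since the domains were placed with the ratios themselves, their enrichment is a description and not a finding.

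By relative position the species placed each domain at nearly the same point. The A07 midpoint lay at 62.6% of the mapped length in G. barbadense and at 62.3% in G. hirsutum, 0.27 percentage points apart. The D07 midpoint lay at 71.7% in G. barbadense and at 71.2% in G. hirsutum, 0.47 percentage points apart. A domain was wider than either gap, at 1.14% to 2.45% of its chromosome. The homoeologues were farther from each other than the species were. A07 minus D07 was -9.14 percentage points in G. barbadense and -8.94 in G. hirsutum.

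The arms measured from the midpoint give the same contrast in Mb. The part before the midpoint was 59.4 Mb on A07 and 41 Mb on D07 in G. barbadense, and the part after it was 35.6 Mb and 16.2 Mb. In G. hirsutum the part before was 60.2 Mb on A07 and 41.6 Mb on D07, and the part after was 36.4 Mb and 16.8 Mb. The ratio of long to short arm was 1.67 on A07 and 2.53 on D07 in G. barbadense, and 1.65 and 2.48 in G. hirsutum. D07 was thus the less symmetric homoeologue in both lists. Of the 12 other D chromosomes in G. barbadense, whose arm ratios ran from 1.07 to 2.72, 1 had a higher arm ratio than D07.

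**Figure D1:**
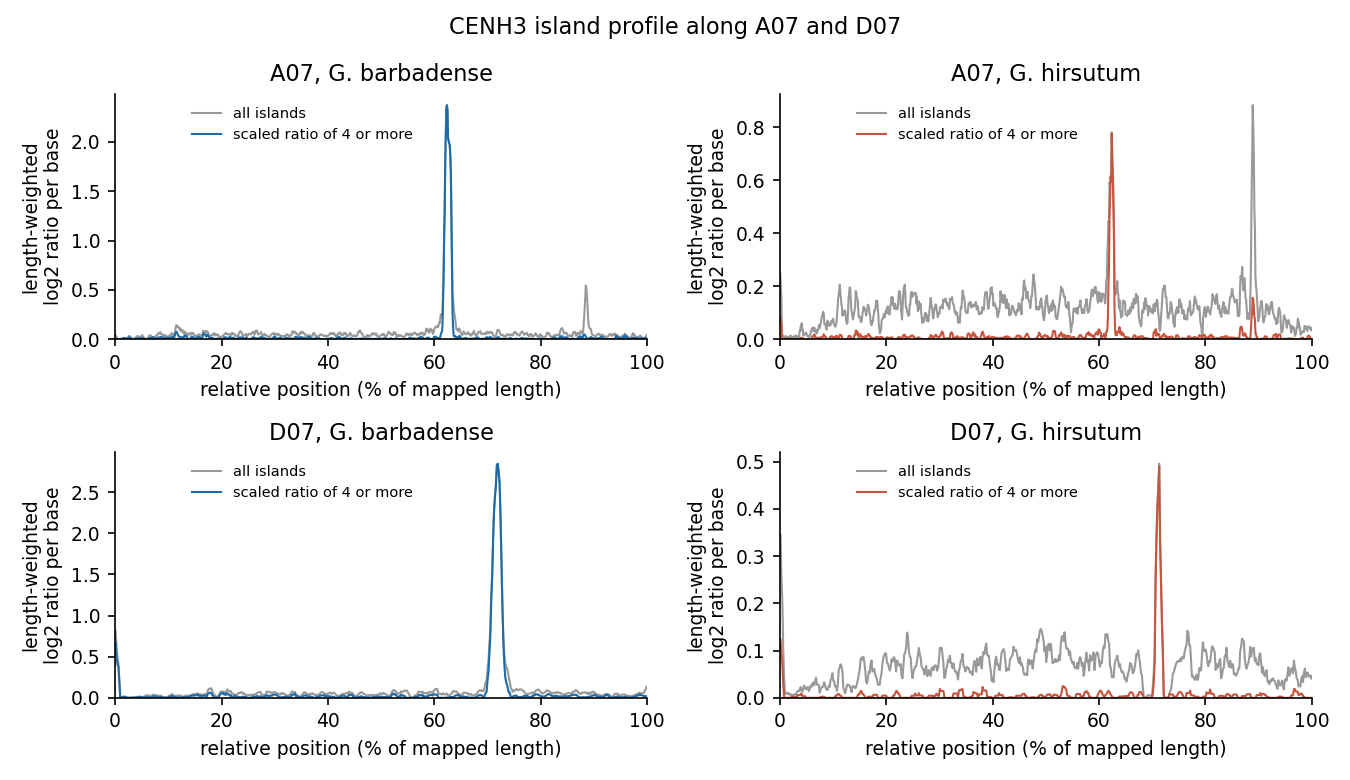
Length-weighted log2 scaled ratio per base in 100 kb bins (running mean of 5 bins, fewer at chromosome ends) against relative position in percent of the mapped length, for A07 (top) and D07 (bottom) in G. barbadense (left) and G. hirsutum (right), each panel with its own vertical scale. Coloured lines hold islands with a scaled ratio of 4 or more and grey lines all islands. The coloured line peaks near 62% on A07 and near 71 to 72% on D07 in both species, and a grey peak without a comparable coloured one stands near 89% on A07.

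The G. barbadense domains were packed with islands. The A07 domain held 376 islands, 366 of them strong, with 50391 ChIP and 3237 input reads and a ratio of 25.5 (24.6 to 26.5). The D07 domain held 313 islands, 308 of them strong, with 50448 ChIP and 3464 input reads and a ratio of 23.9 (23.1 to 24.7). These intervals overlap at their ends. The A07 domain took 27.8% of the ChIP reads and 3.0% of the input reads of the islands on its chromosome, and the D07 domain 39.8% and 5.9%.

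The G. hirsutum domains held fewer and weaker islands, and their order was the other way round. The A07 domain held 124 islands, 105 of them strong, with 12601 ChIP and 2173 input reads and a ratio of 6.96 (6.65 to 7.29). The D07 domain held only 48 islands, 45 of them strong, with 3211 ChIP and 389 input reads and a ratio of 9.91 (8.91 to 11.0). The A07 domain took 3.83% of the ChIP reads in islands of its chromosome and the D07 domain 2.81%. The G. barbadense ratio was 3.67 times that of G. hirsutum on A07 and 2.41 times on D07. Input was sparse in the islands of all 4 domains. Low input raises the scaled ratio by which the domains were placed, so this is a description and not a finding. The median input per kb of island inside the domain was 3.33 reads on A07 and 4.57 on D07 in G. barbadense, and 7.5 and 5 in G. hirsutum, against 17.5 to 21.9 outside the domains. The median ChIP reads per kb inside were 77.5 on A07 and 71.3 on D07 in G. barbadense, and 61.2 and 39.1 in G. hirsutum, against 29.2 to 32.1 outside. The part of the low input in the ratios was not tested.

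Within a domain the species differed more in how much sequence the islands filled than in width. Islands covered 606 kb (37.9%) of the A07 domain and 663 kb (47.4%) of the D07 domain in G. barbadense, against 237 kb (21.5%) and 84.6 kb (10.6%) in G. hirsutum. On A07 the covered share was thus lower than on D07 in G. barbadense, and higher than on D07 in G. hirsutum. The median stretch between neighbouring islands of the domain was 1.2 kb on both chromosomes in G. barbadense, and 2.6 kb on A07 and 6.8 kb on D07 in G. hirsutum. With stretches at the domain edges counted, the longest uncovered one was 36.8 kb on A07 and 42.2 kb on D07 in G. barbadense. In G. hirsutum it was 81.4 kb and 98.8 kb. The 36.8 kb stretch opened the A07 domain of G. barbadense, and the 98.8 kb stretch closed the D07 domain of G. hirsutum.

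Enrichment was not even across a domain. On A07 of G. barbadense the bin of 100 kb from 59.3 Mb had the highest ratio, 61.5 (51.5 to 74.1), and the outermost bins had 4.28 (3.67 to 5.0) at 58.6 Mb and 3.69 (3.29 to 4.15) at 60.1 Mb. The 11 bins from 58.9 to 60 Mb all lay between 27.7 and 61.5, a broad top that was not flat. The bins from 58.9 to 59.2 Mb had 28.3 each, and those from 59.2 to 59.5 Mb had 50.9 to 61.5. The highest island of the chromosome, at 59335601 to 59340800, held 403 ChIP and 2 input reads. Its scaled ratio of 220 rests on the floor of 3 input reads, as do the next 2, at 59849001 to 59852000 (110) and 59227401 to 59229000 (103), each with 2 input reads.

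The D07 domain of G. barbadense was lopsided. The ratio stood at 5.49 (4.68 to 6.46), 6.06 (5.40 to 6.82) and 6.74 (5.99 to 7.59) in the first 3 bins from 40.3 Mb, and reached 56.9 (47.9 to 68.1) in the bin from 41.1 Mb. It then dropped over a shorter distance, to 22.5 (19.2 to 26.6) from 41.5 Mb and 7.27 (6.21 to 8.55) from 41.6 Mb. The midpoint of this domain therefore lay below its most enriched bins, which began at 41.1 and 41.2 Mb. The longest island of the domain, 40896401 to 40918400 (22000 bp, 1996 ChIP and 102 input reads, scaled ratio 32.1), lay before the most enriched bins, and the next longest, 41222601 to 41238600 (16000 bp, 2196 and 70 reads, scaled ratio 51.4), lay in one of them. The D07 islands of highest scaled ratio were 41241601 to 41244800 (249 and 2 reads, 136), 41290401 to 41294400 (593 and 8 reads, 122) and 41341201 to 41342800 (290 and 4 reads, 119).

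In G. hirsutum the A07 domain peaked off centre. Its highest bin, from 60.4 Mb, had a ratio of 15.3 (13.1 to 17.9), and its outer bins had 2.48 (2.23 to 2.77) from 59.6 Mb and 3.53 (3.0 to 4.17) from 60.6 Mb. The 3 islands of highest scaled ratio lay close together, at 60440801 to 60443200 (147 ChIP and 6 input reads, 29.4), 60399201 to 60400800 (89 and 4 reads, 26.7) and 60397001 to 60397800 (63 and 2 reads, 25.2). Its longest domain island, 60079401 to 60092000, had 640 ChIP and 90 input reads and a scaled ratio of 8.53. The D07 domain was flat within its counting error, with bin ratios between 8.09 (6.41 to 10.3) and 12.8 (7.63 to 22.8) and no island midpoint in its last bin. Its strongest islands held few reads: 41355201 to 41357400 had 65 ChIP and 2 input reads (26), 41716201 to 41717400 had 63 and 2 (25.2), and 41492801 to 41494400 had 59 and 2 (23.6).

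**Figure D2:**
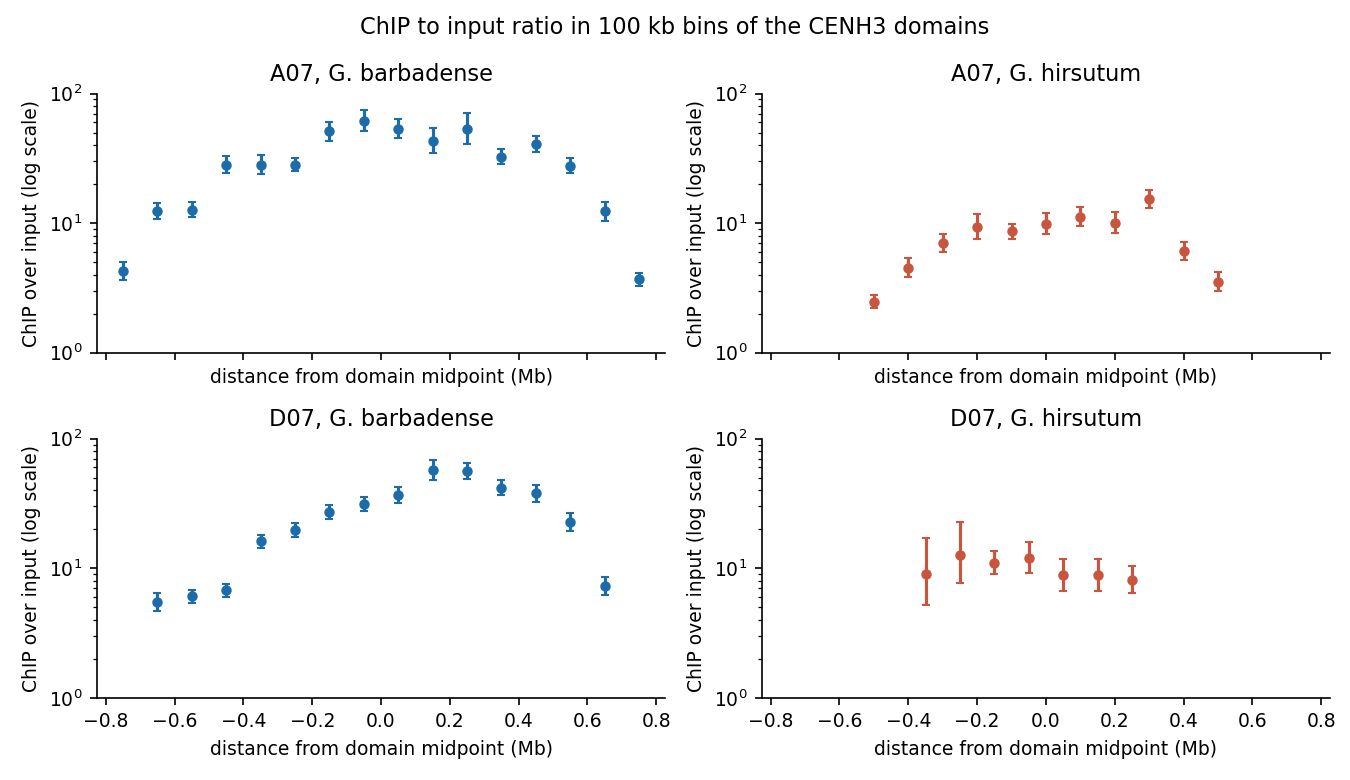
ChIP to input ratio (log scale) of the islands in each 100 kb bin of the domain against distance from the domain midpoint in Mb, for A07 (top) and D07 (bottom) in G. barbadense (left) and G. hirsutum (right). Bars are 95% exact binomial intervals, covering counting error only. G. barbadense A07 forms a broad top with a maximum of 61.5, G. barbadense D07 climbs to 56.9 right of its midpoint, and the G. hirsutum bins stay at or below 15.3.

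The sequence next to the domains set G. hirsutum D07 apart from the other 3 chromosomes. Within 1 Mb on either side of the domain lay 176 islands on A07 and 149 on D07 in G. barbadense, and 126 on A07 and 5 on D07 in G. hirsutum. On the 12 other D chromosomes of G. hirsutum this count ran from 16 to 68, with a median of 46.5, so D07 had the fewest. On 2 of these, D02 and D08, the rule placed the G. hirsutum domain far from its place in G. barbadense, at 0.502% against 47.8% and at 22.3% against 39.9% of the mapped length. Without them the count ran from 25 to 68. The 3 longest stretches without an island on G. hirsutum D07 all bordered or neighboured the domain. They spanned 1001 kb from 41.9 to 42.9 Mb, 861 kb from 39.73 to 40.59 Mb and 572 kb from 40.59 to 41.16 Mb, while the median stretch between islands on that chromosome was 18.4 kb. The longest on G. barbadense D07, 565 kb from 31.53 to 32.1 Mb, lay 8.2 Mb from its domain. The lists hold no reads outside islands, so coverage in these stretches was not analysed here.

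G. hirsutum A07 was at the other end of its list. Its 126 islands within 1 Mb of the domain were more than on any of the 12 other A chromosomes, which had 61 to 98. Enrichment there was weak, with ratios of 2.40 (2.24 to 2.56) in the first 0.5 Mb before the domain and 2.48 (2.30 to 2.68) in the first 0.5 Mb after it. In G. barbadense these 0.5 Mb flanks had 2.45 (2.30 to 2.61) and 2.49 (2.37 to 2.62) on A07, and 3.21 (3.0 to 3.43) and 3.09 (2.91 to 3.29) on D07. From 2 to 5 Mb out, the ratio was 1.97 to 2.09 on A07 and 2.27 to 2.33 on D07 in G. barbadense. It was 2.07 to 2.18 on A07 and 2.01 on D07, on either side, in G. hirsutum.

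Away from the domains, A07 carried a belt of closely spaced islands toward its far end. On A07 of G. hirsutum the highest site outside the domain, from 85.6 to 86.1 Mb, was 1.13 times as high as the domain itself when every island counted, so that a domain rule on all islands picks the belt in that list. A site at the same relative position was present in G. barbadense, from 83.8 to 84.4 Mb, at 0.23 times the height of its domain. Among strong islands alone the highest A07 site outside the domain was this belt in G. hirsutum, but in G. barbadense it lay from 10.7 to 11.2 Mb, at 11.5% of the mapped length. That site held 36 islands, 16 of them strong, with a ratio of 2.81 (2.57 to 3.07). Over the whole G. barbadense list 28.6% of islands were strong. The site was picked from strong islands, so their number and the ratio are a description and not a finding. Its top island, 10972601 to 10974000, had 53 ChIP and 4 input reads (scaled ratio 21.7). The maxima of the belt lay at 88.5% of the mapped length in G. barbadense and at 88.9% in G. hirsutum. Sites outside the domain were as high on some other chromosomes. Among the 26 of each list, this site's height over all islands ranked 4 in G. barbadense and 2 in G. hirsutum. Sites at chromosome ends enter these ranks with means of fewer bins, which can raise them. The D07 start of G. barbadense stood at 0.813, and at 0.488 in its first bin with a full mean, against 0.544 for the A07 belt. The belt was long and weakly enriched. It was picked at the maximum of a profile of island overlap and ratio. Its coverage, its ratio and its share of strong islands are thus a description and not a finding. It held 92 islands that covered 46.6% of its 0.6 Mb at a ratio of 2.07 (2.0 to 2.14) in G. barbadense, and 71 islands that covered 58.0% of its 0.5 Mb at a ratio of 2.81 (2.70 to 2.92) in G. hirsutum.

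The share of strong islands in the belt was below that of the whole list in G. barbadense and above it in G. hirsutum. It was 5.43% (5 of the 92 islands) against 28.6% in G. barbadense, and 19.7% (14 of the 71) against 9.75% in G. hirsutum. Median island length was 2200 bp in G. barbadense and 3400 bp in G. hirsutum, against medians of 1200 bp and 1800 bp over all islands outside the A07 domain. The second longest A07 island of each list lay here: 84098201 to 84113000 in G. barbadense (361 ChIP and 330 input reads, scaled ratio 1.79), and 85827201 to 85843400 in G. hirsutum (506 and 219 reads, 2.77). The belt also held the strongest G. hirsutum A07 island outside the domain among those with 40 or more ChIP reads, 86043001 to 86044200, with 48 ChIP and 2 input reads. Input reads per kb of island were 21.4 in G. barbadense and 12.8 in G. hirsutum, and their part in the belt's ratio was not tested.

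In 0.5 Mb steps around the maximum, islands covered 22.6% just before it and 39.1% just after it in G. barbadense, and 32.1% and 39.3% in G. hirsutum. That maximum was picked from island overlap and ratio, so higher coverage beside it follows from the choice. Before the belt, from 2.5 to 1 Mb short of the maximum, the steps had 4% to 6.2% in G. barbadense and 12.7% to 18% in G. hirsutum. At 1 to 1.5 Mb beyond the maximum islands covered 3.48% in the G. barbadense list and 8.36% in that of G. hirsutum. The ratio ran between 1.73 and 2.86 across the steps in G. barbadense and between 1.96 and 2.75 in G. hirsutum. In G. hirsutum the highest step was the one just after the maximum, at 2.75 (2.62 to 2.88). In G. barbadense it lay from 1.5 to 1 Mb before the maximum, at 2.86 (2.47 to 3.32). In G. barbadense the belt's ratio of 2.07 was close to the 2.04 of all islands outside the domain, and in G. hirsutum its 2.81 was above the 2.10 of the islands outside. Since ratios entered the choice of the belt, this too is a description and not a finding.

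**Figure D3:**
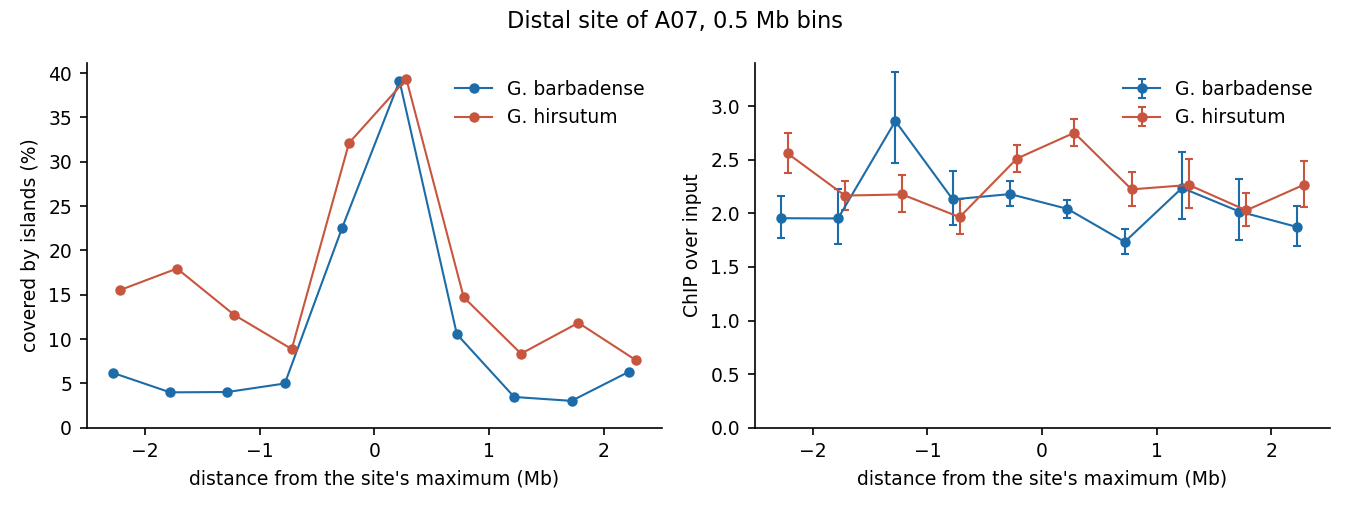
Share of sequence covered by islands in percent (left) and ChIP to input ratio of the islands (right) in 0.5 Mb steps against distance in Mb from the maximum of the A07 site near 89% of the mapped length, in G. barbadense (blue) and G. hirsutum (red). Bars on the right are 95% exact binomial intervals. Coverage reaches 39.1% and 39.3% beside the maximum, while no ratio exceeds 2.86. The maximum was picked from island overlap and ratio, so high coverage beside it follows from the choice.

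On D07 the highest site outside the domain was a cluster of islands at the start of the chromosome. The cluster was picked as the maximum of the profile outside the domain. Its strong islands and its ratio are thus a description and not a finding. In G. barbadense the first 0.5 Mb of D07 held 69 islands, 49 of them strong, between 18801 and 280400. Over the whole list 28.6% of islands were strong. On the 24 chromosomes other than A07 and D07 of that list the first 0.5 Mb held 0 to 5 strong islands, and on A07 the count was 0. The strongest of the cluster with 40 or more ChIP reads were 251601 to 252200 (92 ChIP and 4 input reads, scaled ratio 37.7), 236401 to 237400 (177 and 8 reads, 36.3) and 240401 to 242000 (193 and 10 reads, 31.7). Over all islands the region's ratio was 1.83 (1.78 to 1.88), and without the island at the first base it was 5.74 (5.41 to 6.09), so that 1 island of dense input decides this value.

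The start of D07 was less marked in G. hirsutum. Its first 0.5 Mb held 24 islands, 5 of them strong, with a ratio of 1.63 (1.57 to 1.69) over all of them and 2.60 (2.43 to 2.78) without the island at the first base. The first 0.5 Mb of G. hirsutum A07 held 14 islands, 3 of them strong, with a ratio of 1.81 (1.74 to 1.87) over all of them and 3.34 (3.10 to 3.61) without that island. On the 24 other chromosomes of that list the count of strong islands there ran from 0 to 13. Over the whole list 9.75% of islands were strong. The A07 island at 55601 to 65600 had 782 ChIP and 224 input reads and a scaled ratio of 4.19. On D07 of G. hirsutum the island at 30401 to 36800 had 458 and 127 reads (4.33). By count of strong islands at the start, D07 ranked 1 among the 26 chromosomes of G. barbadense and 7 among those of G. hirsutum. The D07 start was picked for its height in these same profiles, so the ranks are a description.

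All 4 chromosomes opened with a long island that began at the first base and had a low ratio. In G. barbadense it was 16200 bp on A07 (5177 ChIP and 7171 input reads, scaled ratio 1.18) and 14400 bp on D07 (5593 and 8094 reads, 1.13). In G. hirsutum it was 16400 bp on A07 (4448 and 3716 reads, 1.44) and 13800 bp on D07 (4063 and 3750 reads, 1.30). It was the island with the most ChIP reads on each of them. Such an island at the first base was common, on 25 of the 26 chromosomes of G. barbadense and on all 26 of G. hirsutum.

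A few other islands also had very dense input. On D07 of G. barbadense, 47771401 to 47781400 at 83.5% of the mapped length held 4562 ChIP and 4654 input reads (scaled ratio 1.61), and 41745201 to 41747200, just beyond the domain, held 652 and 585 (1.83). On G. hirsutum A07 an island of only 800 bp, 4961801 to 4962600, held 1679 and 1336 reads (1.51). On G. hirsutum D07 5133601 to 5137400 held 1478 and 1291 reads (1.37). Input at these islands ran from 292.5 to 1670 reads per kb, and the median over islands outside the domains from 17.5 to 21.9.

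The rest of the chromosome was compared in 20 windows of 5% of the mapped length. On A07 the density of islands followed a similar course in both species. It was lowest in the first window, at 8.21 islands per Mb in G. barbadense and 11 in G. hirsutum, and outside the domain it was highest in the window from 85 to 90% that holds the belt, at 48 and 67.7 per Mb. The last window had 17.1 and 22.2 per Mb. The median over the 19 windows without the domain was 30.1 per Mb in the G. barbadense list and 50.9 per Mb in that of G. hirsutum.

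On D07 the windows from 5 to 10% were the sparsest in both species, with 11.5 islands per Mb in G. barbadense and 14 in G. hirsutum. The densest windows outside the domain were not the same, from 75 to 80% in G. barbadense (42.3 per Mb) and from 50 to 55% in G. hirsutum (42.5 per Mb). The window holding the domain had 149 islands per Mb in G. barbadense and 23.6 in G. hirsutum, where it was below the median of 31.5 of the other windows. Its ratio was the highest of its chromosome in both, at 12.9 (12.6 to 13.3) and 4.54 (4.27 to 4.83).

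**Figure D4:**
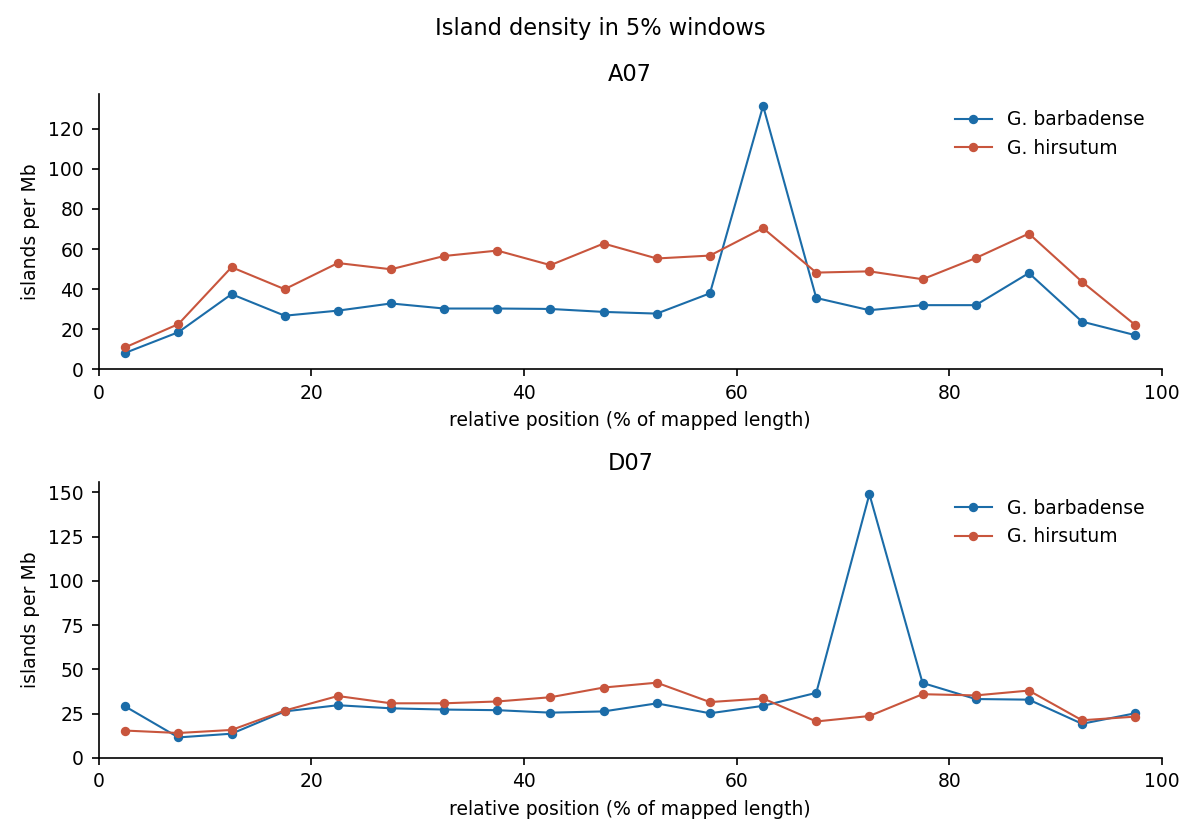
Islands per Mb in 20 windows of 5% of the mapped length for A07 (top) and D07 (bottom), in G. barbadense (blue) and G. hirsutum (red). The domain window stands out at 131 and 149 per Mb in G. barbadense, and the D07 domain window of G. hirsutum, at 23.6 per Mb, is below the median of 31.5 of its other windows.

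Outside the domains the homoeologues differed in opposite senses in the lists. Strong islands numbered 414 on A07 and 453 on D07 in G. barbadense, or 4.43 and 8.12 per Mb, and 341 and 109 in G. hirsutum, or 3.57 and 1.89 per Mb. The other pairs of same-numbered chromosomes showed the same signs, with A minus D negative in 12 of 12 in G. barbadense and positive in 12 of 12 in G. hirsutum. Over whole chromosomes 23.9% of islands on A07 and 39.8% on D07 were strong in G. barbadense, against 28.6% of the list. In G. hirsutum 9.51% on A07 and 9.10% on D07 were strong, against 9.75% of the list. Both G. hirsutum shares were thus near the share of the whole list, while G. barbadense D07 lay above it and A07 below it. When only strong islands with 40 or more ChIP reads were counted, the values were 0.578 and 1.88 per Mb in G. barbadense and 1.91 and 0.781 per Mb in G. hirsutum.

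Islands of any ratio were counted outside the domains too. Their density was 30.9 per Mb on A07 and 28.6 on D07 in G. barbadense, and 47.8 and 28.6 per Mb in G. hirsutum. These islands covered 4.74% and 4.12% in G. barbadense, and 10.4% and 6.15% in G. hirsutum. The density on D07 was thus nearly equal in the lists, and that on A07 was lower in G. barbadense. The summed ratio of these islands stayed close to 2 throughout, at 2.04 (2.03 to 2.06) on A07 and 2.27 (2.24 to 2.29) on D07 in G. barbadense, and 2.10 (2.09 to 2.12) and 1.99 (1.97 to 2.01) in G. hirsutum. Island medians of ChIP reads outside the domains were 35 on A07 and 34 on D07 in G. barbadense, and 56 and 54 in G. hirsutum, so the lists differed in reads per island. Its part in these counts was not tested.

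Set among the 13 chromosomes of each subgenome, chromosome 7 took end positions in several measures. The G. barbadense A07 domain, at 1.6 Mb, was wider than those of all 12 other A chromosomes, which ran from 1 to 1.5 Mb. Widths are resolved to 1 bin of 100 kb at each edge, so this lead is within the resolution. The other settings gave this domain 1.3 to 1.6 Mb. Its covered share of 37.9% was lower than on 11 of the others. The G. barbadense D07 domain, at 1.4 Mb, lay inside the range of 1.2 to 1.8 Mb of the other D chromosomes. Its height over the next site, the cluster at the D07 start, was 4.24 times, the lowest of its list. The other D chromosomes had 9.20 to 67.8 times. At a chromosome end the running mean holds only the bins present, which raised the height of that cluster. The profile of strong islands stood at 0.671 in the first bin and at 0.403 at 0.437% of the mapped length. The latter is the first bin with a full mean of 5 bins, so the 4.24 times holds an edge effect. The G. hirsutum A07 domain had the lowest ratio of its subgenome, 6.96 (6.65 to 7.29) against 7.17 to 10.5 on the other A chromosomes. That interval holds the 7.17 of A02, the next lowest. The domain's covered share of 21.5% was level with the highest of the others. The G. hirsutum D07 domain had a ratio of 9.91 (8.91 to 11.0), below 1 of the 12 other D chromosomes, which had 1.54 to 11.1. That interval holds the 9.50 of D10, the 9.35 of D13 and the 9.13 of D05. Without D02 and D08, whose G. hirsutum domains lay far from their place in G. barbadense, the other 10 had 4.99 to 11.1, and 1 was again above D07.

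Outside the domains, A07 had the highest covered share of all A chromosomes in both lists. It was 4.74% against 3.79% to 4.67% in G. barbadense and 10.4% against 8.51% to 9.90% in G. hirsutum. The belt is part of these shares, with 279 kb covered in G. barbadense and 290 kb in G. hirsutum. The rank of A07 without the belt was not computed. D07 had the most strong islands per Mb of all D chromosomes in G. barbadense, 8.12 against 5.73 to 7.87, but in G. hirsutum its 1.89 was below 10 of the 12 others. The place of G. barbadense D07 rests on the cluster at its start. With the first 0.5 Mb of every chromosome left out, it had 7.31 per Mb against 5.71 to 7.89, below 1 of the 12 others. These are ranks among chromosomes of 1 library and carry no test.

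**Figure D5:**
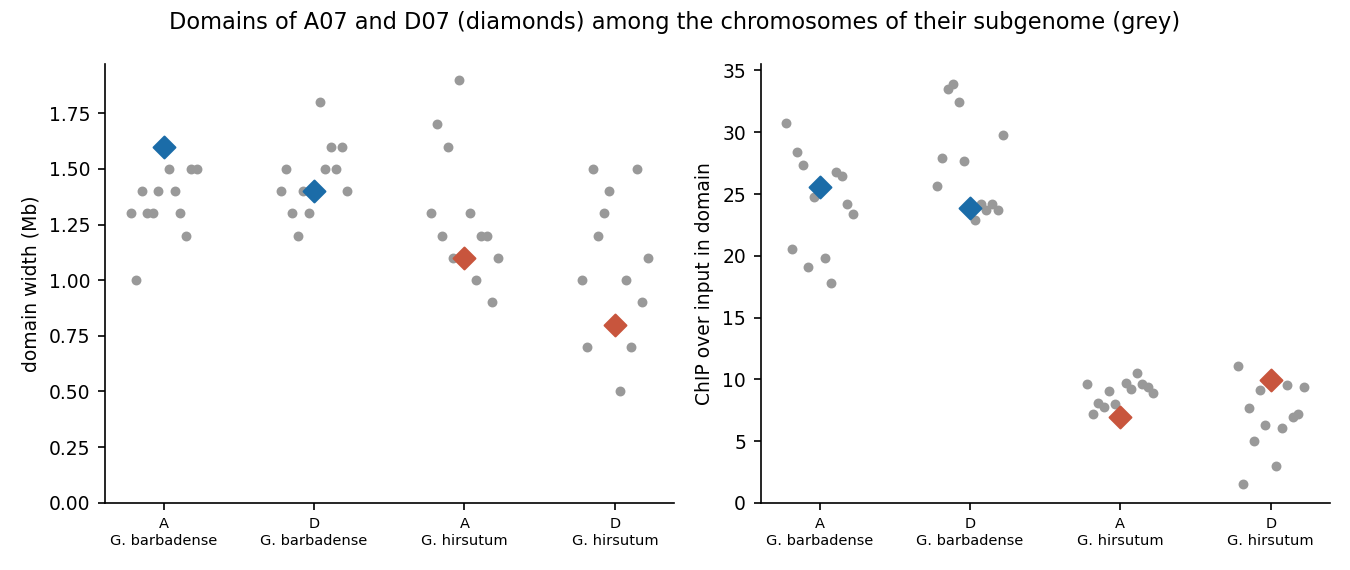
Domain width in Mb (left) and ChIP to input ratio of the domain (right) for A07 and D07 (diamonds) and the 12 other chromosomes of the same subgenome (grey points, in order of chromosome number), in G. barbadense (blue) and G. hirsutum (red). The A07 diamond of G. barbadense is at 1.6 Mb, above all grey points of its column, by a lead within the resolution of the bins. The A07 diamond of G. hirsutum, at a ratio of 6.96, is below all of its column. Its interval, 6.65 to 7.29, holds the 7.17 of A02. The lowest 2 grey ratios among D chromosomes of G. hirsutum are D02 and D08.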

How the data were processed

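CENH3 ChIP and input libraries, 1 of each per species, were made from leaf nuclei, per the labels' protocols. Trimmomatic, Bowtie2 and SICER were used, per the submitters' processing notes. Their versions and the builds are not given in the sources used here. Windows of 200 bp, gaps of 400 bp, a false discovery rate of 0.01 and the tag uniq stand in the deposited lists' names. The meaning of that tag is not stated; if multiply placed reads were dropped, islands in repeats would be missed. The lists hold only reads inside islands, so library depth is unknown. The deposited columns are raw counts of ChIP and input reads, the authors' p-value, their fold (a ratio) and their false discovery rate (a q-value). The columns carry no header and were read in SICER's usual order. Dividing the deposited fold by the quotient of ChIP and input counts gave a single constant for each list, 1.64 and 1.20. Islands with 0 input reads had a fold as if 0.25 had been counted, so input was counted here as at least 3 reads.

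Profiles summed island overlap times log2 scaled ratio in bins of 100 kb, with a running mean of 5 bins, over islands with a scaled ratio of 4 or more. At chromosome ends the mean was taken over the bins present, fewer than 5, which raises sites in the outermost bins. A domain is the run of bins holding the maximum and at or above the median plus 25% of the way to the maximum, with gaps of 2 bins bridged. Sites outside lie over 2 Mb away and reach 50% of the way to their own maximum. Islands were assigned by their midpoint. The rule was tested on simulated islands, with a single planted domain of evenly strong islands on a weak, even background. No rival site was planted and the domain held many islands. The test thus does not show how the rule acts on sparse domains or beside other high sites. Python 3.11.15, numpy 2.4.6, pandas 2.3.3, scipy 1.17.1 and matplotlib 3.10.9 were used. Coordinates are counted from 1.

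Named islands were, per chromosome and list, the 3 of highest scaled ratio, with most ChIP reads, longest, and, outside the domain, with most ChIP reads above scaled input and of highest scaled ratio with at least 40 ChIP reads; not all are printed. The members, domain rule and alternatives were chosen with earlier results of these data known. No genome of the lists' builds was used here, so no sequence or gene is given.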

Additional observations from a re-analysis of the deposited data

Results flagged for a closer look

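The A07 minus D07 difference had opposite signs in the 2 species in 3 measures; these differences between species were not tested, and each rests on 1 library pair per species. The density of strong islands outside the domains differed by -3.69 per Mb in G. barbadense and 1.68 per Mb in G. hirsutum. The median scaled ratio of islands outside the domains differed by -0.478 in G. barbadense (2.19 on A07 and 2.67 on D07) and by 0.0897 in G. hirsutum (2.17 and 2.08). Neither pattern was particular to chromosome 7: in both measures A minus D was negative in 12 of the 12 other pairs in G. barbadense and positive in 12 of 12 in G. hirsutum. The ChIP to input ratio of the domain differed by 1.65 in G. barbadense and -2.95 in G. hirsutum, where the other pairs ran from -13.3 to 5.08 in G. barbadense and from -1.44 to 6.75 in G. hirsutum, the G. hirsutum range including D02 and D08. Over the settings that kept the domains in place, the G. hirsutum gap was narrowest with domain edges at 50% of the way to the maximum, at 9.55 on A07 and 10.5 on D07.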

How the results depend on the processing

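No paired analysis was possible because each group holds 1 library. Each domain was recomputed under 6 other settings. Its position was the most stable value: midpoints moved by no more than 1 bin except on A07 of G. hirsutum with all islands, where the midpoint moved to the belt at 88.9%, the width became 0.8 Mb, the ratio 2.67 and the difference between species -26.4 percentage points; the number of strong islands inside was then 16. On D07 of G. barbadense the ratio was 20.1 with all islands and 20.2 with bins of 50 kb, both of which brought in the dense-input island next to the domain. With islands of scaled ratio 8 or more the ratios were 31.0 on A07 and 27.4 on D07 in G. barbadense, and 8.75 on A07 in G. hirsutum. With domain edges at 50% of the way to the maximum, widths were 1.3 Mb on A07 and 1.1 Mb on D07 in G. barbadense, and 0.8 and 0.5 Mb in G. hirsutum; ratios were 32.8, 28.8 and, on A07 of G. hirsutum, 9.55. With the authors' fold they were 27.2 on A07 and 25 on D07 in G. barbadense. A further 4 settings were added after seeing the data. Leaving out the island at the first base moved no second site, and a minimum of 40 ChIP reads lowered each density of strong islands. Leaving out the first 0.5 Mb, or chromosomes D02 and D08 from the comparison set, had the effects given above. The cause of the other shifts was not tested. Of the values recomputed for midpoints, widths, ratios and differences between species, 66 were unchanged within their error, 17 moved and 1 changed sign. Widths and positions are resolved to 1 bin, and a site without called islands has no value in these lists.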
